A study of Mus musculus with 24 samples.

Results

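The change of the transcriptome over the first day with Activin A was compared between Setd3 knock-out and wild-type mouse embryonic stem cells. It rests on 12 of the 24 RNA-seq libraries of an endoderm differentiation, chosen by genotype and day alone, with no measured value. The groups were Setd3 knock-out cells at day 3, wild-type cells at day 3, Setd3 knock-out cells at day 2 and wild-type cells at day 2, with 3 libraries each. All were CJ9 embryonic stem cells, a mouse line, kept with LIF on inactivated embryonic fibroblasts and then separated from these. Both genotypes spent 2 days in a serum-free medium without added Activin A. On day 2 they were dispersed to single cells and replated into the same medium with Activin A, so day 2 is the level before the factor was added and day 3 the first sampling after it. The labels list no day 3 culture without Activin A, so the factor, the replating and the extra day cannot be told apart in the step. The knock-out is 1 line, made with CRISPR-Cas9, and the effects of Setd3 and of that line cannot be told apart. The labels do not say whether replicates were separate cultures, and p-values measure only the spread between these samples.

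Activin A stands in for Nodal, the TGF-beta family ligand that patterns the early mouse embryo. Both bind type II and type I activin receptors, which phosphorylate Smad2 and Smad3. These join Smad4 and, with partners such as Foxh1, switch on target genes, among them Nodal itself and the feedback inhibitors Lefty1, Lefty2 and Smad7. In the epiblast this signal cooperates with Wnt and beta-catenin to form the primitive streak, where T, Eomes and Mixl1 mark mesendoderm and Foxa2 and Sox17 mark the definitive endoderm that follows. Setd3 is a methyltransferase of a histidine residue of actin.

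Setd3 itself had 31.7, 33.7 and 29.4 CPM in knock-out and 124, 116 and 121 CPM in wild-type cells at day 3, and 33.9, 29.6 and 29.2 CPM in knock-out and 97.1, 97.2 and 98.2 CPM in wild-type cells at day 2. The groups did not overlap on either day, and the log2 difference between knock-out and wild-type was -1.93 at day 3 and -1.66 at day 2. The day 3 difference minus the day 2 difference was -0.27, adjusted p = 0.051, which was not called. It was called in fits without knock-out day 2 replicate 3 (0.0395), knock-out day 3 replicate 2 (0.0278) or wild-type day 3 replicate 2 (0.0476). CPM are gene counts relative to the library total after TMM scaling. The 12 libraries held 18531390 to 24244958 counts. Of 17 tested fibroblast markers, edgeR called none in the interaction defined below, with 4 higher and 1 lower at an unadjusted p under 0.05, and DESeq2 called 3 higher. Their summed level was 103 to 125 CPM in knock-out and 87.4 to 96.4 CPM in wild-type cells at day 3, and 123 to 211 CPM in knock-out and 122 to 147 CPM in wild-type cells at day 2. The stem cell markers Pou5f1, Sall4, Lin28a and L1td1 summed to between 1984 and 2317 CPM in every library. The knock-out line has blocks of chromosome 12 that stand higher or lower than in wild-type as a whole, but these offsets were alike on both days. The median log2 difference of 60 genes from Bcl11b onward was -0.87 at day 3 and -0.90 at day 2. The 45 genes from Cep128 to Vrk1 had medians of 1.21 at day 3 and 1.29 at day 2. Setd3 lies on the same chromosome beyond Bcl11b and is 1 of those 60 genes. The 567 genes of chromosome 8 had medians of 0.23 at day 3 and 0.26 at day 2.

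For each of 17144 tested genes the knock-out step (day 3 over day 2, log2 fold change) was set against the wild-type step. Their difference, knock-out minus wild-type, is called the interaction here. A negative interaction means a smaller rise, or a larger fall, in knock-out cells. Genes are called at a Benjamini-Hochberg adjusted p under 0.05 in edgeR's quasi-likelihood test. The knock-out step was called for 29.1% of the tested genes and the wild-type step for 42.4%. The interaction was called for 1877 genes (10.9%), of which 1134 were higher (6.61%) and 743 lower (4.33%). The median interaction of all tested genes was -0.005.

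Genes that respond to the step were taken from the average of the 2 genotypes, which leans toward neither sign of the interaction: 498 genes rose at least 2-fold (2.9% of those tested) and 1425 fell at least 2-fold (8.31%). Of the 498 that rose, 89 rose less in knock-out cells and 35 rose more. A further 27 rose alike, meaning that the 95% interval of the interaction lay within 1.5-fold on either side, and 347 were undetermined. Of the 1425 that fell, 210 fell less in knock-out cells, 24 fell more, 21 fell alike and 1170 were undetermined. Single libraries moved some of these counts: 130 fell less without wild-type day 3 replicate 1, and 22 rose more without wild-type day 2 replicate 1. The count that fell more was 14 without wild-type day 2 replicate 1 or knock-out day 2 replicate 2 and 12 without knock-out day 3 replicate 3. The count that fell alike was 13 without knock-out day 2 replicate 1 and 12 without knock-out day 2 replicate 2 or wild-type day 3 replicate 2 or 3. The undetermined genes were low: the median of their mean level was 1.29 CPM for those that rose, against 28.6 CPM for those that rose alike.

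**Figure D1:**
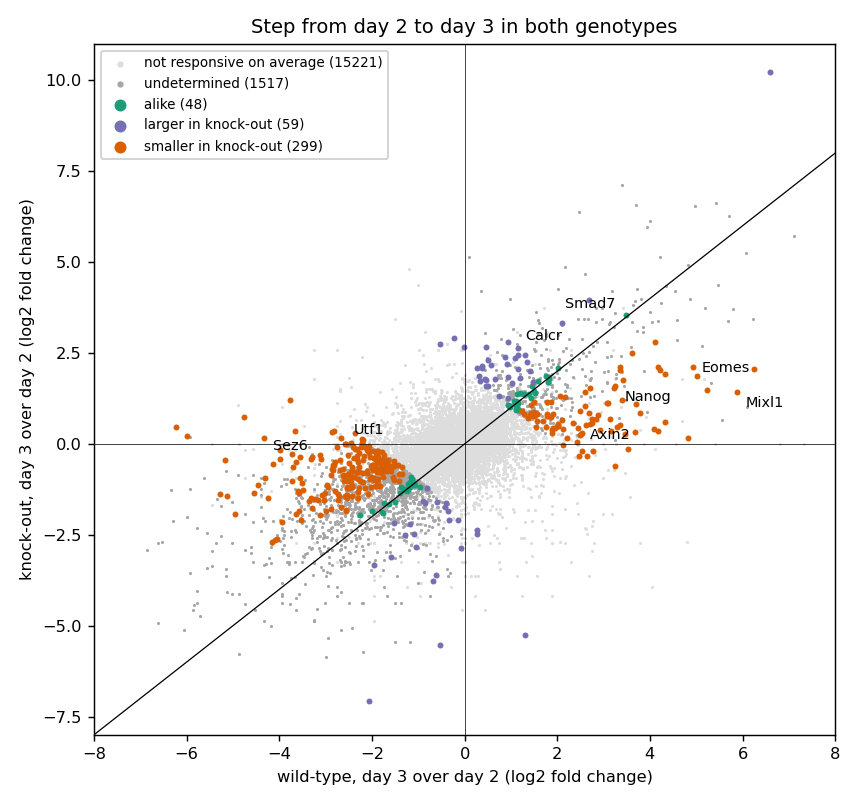
Log2 fold change of day 3 over day 2 for each tested gene, knock-out cells on the vertical and wild-type cells on the horizontal axis, with the line of equal steps. Orange points, 299 genes with a smaller step in knock-out cells, lie on the side of the line toward the horizontal axis, some of them across that axis. Purple points, 59 genes with a larger step, include Calcr. Green points, 48 genes with alike steps, follow the line.

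Feedback genes of Smad signalling rose in both genotypes. Smad7, which blocks receptor signalling, had 102, 99.4 and 101 CPM in knock-out and 47.3, 51.4 and 60.0 CPM in wild-type cells at day 3, and 9.79, 9.28 and 6.88 CPM in knock-out and 5.85, 4.74 and 3.47 CPM in wild-type cells at day 2. Knock-out libraries were above wild-type libraries on both days, and the steps were 3.54 in knock-out and 3.49 in wild-type cells, with an interaction of 0.06 ± 0.21 (SE, adjusted p = 0.919) and an interval of -0.39 to 0.50. Pmepa1, another feedback inhibitor, had 73.4, 68.5 and 75.9 CPM in knock-out and 98.7, 97.3 and 96.1 CPM in wild-type cells at day 3, and 2.41, 2.6 and 2.15 CPM in knock-out and 4.61, 3.06 and 2.64 CPM in wild-type cells at day 2. Its step was 4.93 in knock-out and 4.81 in wild-type cells and its interaction 0.11 ± 0.37 (SE, adjusted p = 0.899). Nodal had 81.1, 76.3 and 93 CPM in knock-out and 144, 148 and 152 CPM in wild-type cells at day 3, and 5.52, 6.78 and 5.34 CPM in knock-out and 14.5, 14.1 and 7.15 CPM in wild-type cells at day 2. It was lower in knock-out cells on both days without overlap, while its steps were 3.83 in knock-out and 3.63 in wild-type cells, with an interaction of 0.19 ± 0.24 (SE, adjusted p = 0.693). Lefty1, a secreted antagonist of Nodal, had steps of 5.13 in knock-out and 4.22 in wild-type cells and Lefty2 of 3.39 in knock-out and 4.18 in wild-type cells, all called. Their interactions of 0.92 and -0.79 were not called, and the intervals were wide, at -0.18 to 2.01 for Lefty1 and -1.81 to 0.23 for Lefty2. For Nodal and Pmepa1 too the interval reached past 1.5-fold on at least 1 side, so by the rule above only Smad7 of these genes counts as alike.

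Of 13 tested receptors, Smads and partners, 1 was called higher in the interaction (6.61% of all tested genes were) and 1 lower (4.33%), and the list's median was 0.06. Trim33, which regulates Smad4, was the higher one at 0.22 ± 0.06 (SE, adjusted p = 0.0219). It fell in both genotypes, by 0.31 on the log2 scale in knock-out and by 0.53 in wild-type cells. The lower one was Tdgf1, the Nodal co-receptor and itself a Nodal target. It had 266, 265 and 256 CPM in knock-out and 827, 624 and 531 CPM in wild-type cells at day 3, and 64.9, 67.2 and 48.4 CPM in knock-out and 38.9, 39.9 and 30.5 CPM in wild-type cells at day 2. Knock-out cells held more than wild-type cells before Activin A and less after it, and the interaction was -2.06 ± 0.25 (SE, adjusted p = 3.77e-05). Reads of Tdgf1 may be shared with its processed copy Tdgf1-ps1, and this count is uncertain. The receptors Acvr1b, Acvr2a, Acvr2b and Tgfbr1 had interactions of 0.04, -0.17, 0.00 and -0.02, none called. With 1 library left out in turn, Trim33 lost its call in 4 of 12 fits, with an adjusted p of up to 0.0829 without wild-type day 3 replicate 1.

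Of 10 Nodal and Activin target genes, 7 rose in knock-out cells (14.7% of all tested genes did) and 8 in wild-type cells (21.4%), with a median step of 3.47 in knock-out and 3.56 in wild-type cells. The interaction was called lower for 2, Tdgf1 and Fst (4.33% of all tested genes were), and higher for 1, Gdf3 (6.61%). Fst, a secreted protein that binds and neutralises activin, had 41, 36 and 46.3 CPM in knock-out and 349, 319 and 278 CPM in wild-type cells at day 3, and 20.4, 13.9 and 18.7 CPM in knock-out and 35, 32 and 22.4 CPM in wild-type cells at day 2. The groups overlapped on neither day, and the interaction was -2.18 ± 0.49 (SE, adjusted p = 0.00781). Gdf3, a Nodal-related ligand, fell in both genotypes, by 1.14 on the log2 scale in knock-out and by 1.89 in wild-type cells, an interaction of 0.76 ± 0.24 (SE, adjusted p = 0.0424). Gdf3 lost its call in 10 of 12 fits with 1 library left out, with an adjusted p of up to 0.127 without wild-type day 3 replicate 1.

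Among genes that rose less in knock-out cells were regulators of the primitive streak. Mixl1, a homeobox gene of mesendoderm, had 1.31, 1.79 and 2.46 CPM in knock-out and 264, 161 and 114 CPM in wild-type cells at day 3, and 0.603, 0.561 and 0.898 CPM in knock-out and 4.13, 3 and 1.97 CPM in wild-type cells at day 2. The knock-out libraries at day 3 were all at 2.46 CPM or less and the wild-type libraries all at 114 CPM or more, although the wild-type libraries themselves spread widely. The knock-out step was not called, and the interaction was -4.46 ± 0.88 (SE, adjusted p = 0.00996). It lost its call without knock-out day 2 replicate 3, with an adjusted p of 0.0671, and in the fit to 12 libraries, with 0.0568. Eomes, the T-box factor needed for definitive endoderm, had 32.2, 30.5 and 36 CPM in knock-out and 552, 492 and 412 CPM in wild-type cells at day 3, and 5.93, 7.34 and 9.38 CPM in knock-out and 20.8, 15.4 and 11.6 CPM in wild-type cells at day 2. It rose in both genotypes, with steps of 2.12 in knock-out and 4.93 in wild-type cells, and the interaction of -2.80 ± 0.35 (SE, adjusted p = 4.87e-05) was called in all 12 fits with 1 library left out. Evx1, a homeobox gene of the posterior streak, had 0.931, 0.368 and 0.833 CPM in knock-out and 43.5, 36.5 and 25.8 CPM in wild-type cells at day 3, and 0.301, 0.204 and 0 CPM in knock-out and 0.528, 0.685 and 0.155 CPM in wild-type cells at day 2. Its interaction was -4.20 ± 0.98 (SE, adjusted p = 0.0253), and the call was lost without knock-out day 2 replicate 1 (adjusted p 0.257) or replicate 2 (adjusted p 0.109). Evx1 overlaps the antisense gene Evx1os, so its reads are uncertain. At day 3 the wild-type level fell from replicate 1 to replicate 3 for Mixl1, Eomes and Evx1, and for T, Foxa2, Hhex and Pdgfra below. It rose in that order for Utf1, Pou3f1 and Fgf4, and Axin2 followed neither order. Calls lost without 1 of these libraries are therefore not separate events between such genes.

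The other genes with the most negative interaction, among those that rose and reached 10 CPM in at least 1 group mean, are known for varied roles. Adamts9, a secreted metalloprotease, had 19.4 ± 1.26 CPM in knock-out and 323 ± 71 CPM in wild-type cells at day 3, and 6.88 ± 0.179 CPM in knock-out and 8.58 ± 2.39 CPM in wild-type cells at day 2 (SD, n = 3 each). Its interaction was -3.74 ± 0.36 (SE, adjusted p = 3.46e-06). Lzts1, a leucine zipper protein, had 3.22 ± 1.03 CPM in knock-out and 67.4 ± 18.4 CPM in wild-type cells at day 3, and 2.52 ± 0.201 CPM in knock-out and 3.7 ± 0.726 CPM in wild-type cells at day 2. No knock-out step was called for Lzts1, and the interaction was -3.83 ± 0.52 (SE, adjusted p = 9.01e-05). Fgf17, an FGF ligand of the streak, had 2.1 ± 0.208 CPM in knock-out and 11.7 ± 3.07 CPM in wild-type cells at day 3, and 1.37 ± 0.39 CPM in knock-out and 0.58 ± 0.197 CPM in wild-type cells at day 2. It was higher in knock-out than in wild-type cells at day 2 and lower at day 3, an interaction of -3.73 ± 0.49 (SE, adjusted p = 1.4e-05). Grrp1 had an interaction of -3.67, adjusted p = 0.00105, Samd5 one of -3.68, adjusted p = 0.00683 and Pcdh7, a protocadherin, one of -3.35, adjusted p = 0.0293. None of these 3 had a called step in knock-out cells. Samd5 lost its interaction call without knock-out day 2 replicate 1, with an adjusted p of 0.0808. Pcdh7 lost it in 6 of 12 fits with 1 library left out, with an adjusted p of up to 0.124 without knock-out day 2 replicate 1.

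Over the 89 genes that rose less in knock-out cells, the median step was 0.75 in knock-out and 2.59 in wild-type cells. The knock-out step was still called upward for 51 of them (14.7% of all tested genes) and was not called for 38. These genes were chosen by the interaction, which is the day 3 genotype difference minus that of day 2. Their levels on these days describe the class and are no separate evidence. At day 3, 83 of the 89 were lower in knock-out cells, as were 20.5% of all tested genes. At day 2, 15 were lower (15.7% of all tested genes) and 14 were higher (16.2%) in knock-out cells, and 60 were lower at day 3 with no called difference at day 2. At day 4 the knock-out mean was above the knock-out mean of day 3 for 81 of the 89 genes, and it reached the wild-type mean of day 3 for 8. Of the 15221 genes that did not count as responsive, 7698 and 7200 did so. The choice by the interaction favours a low knock-out and a high wild-type level at day 3. It thereby favours a high first count and a low second one, so these too only describe the class.

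**Figure D2:**
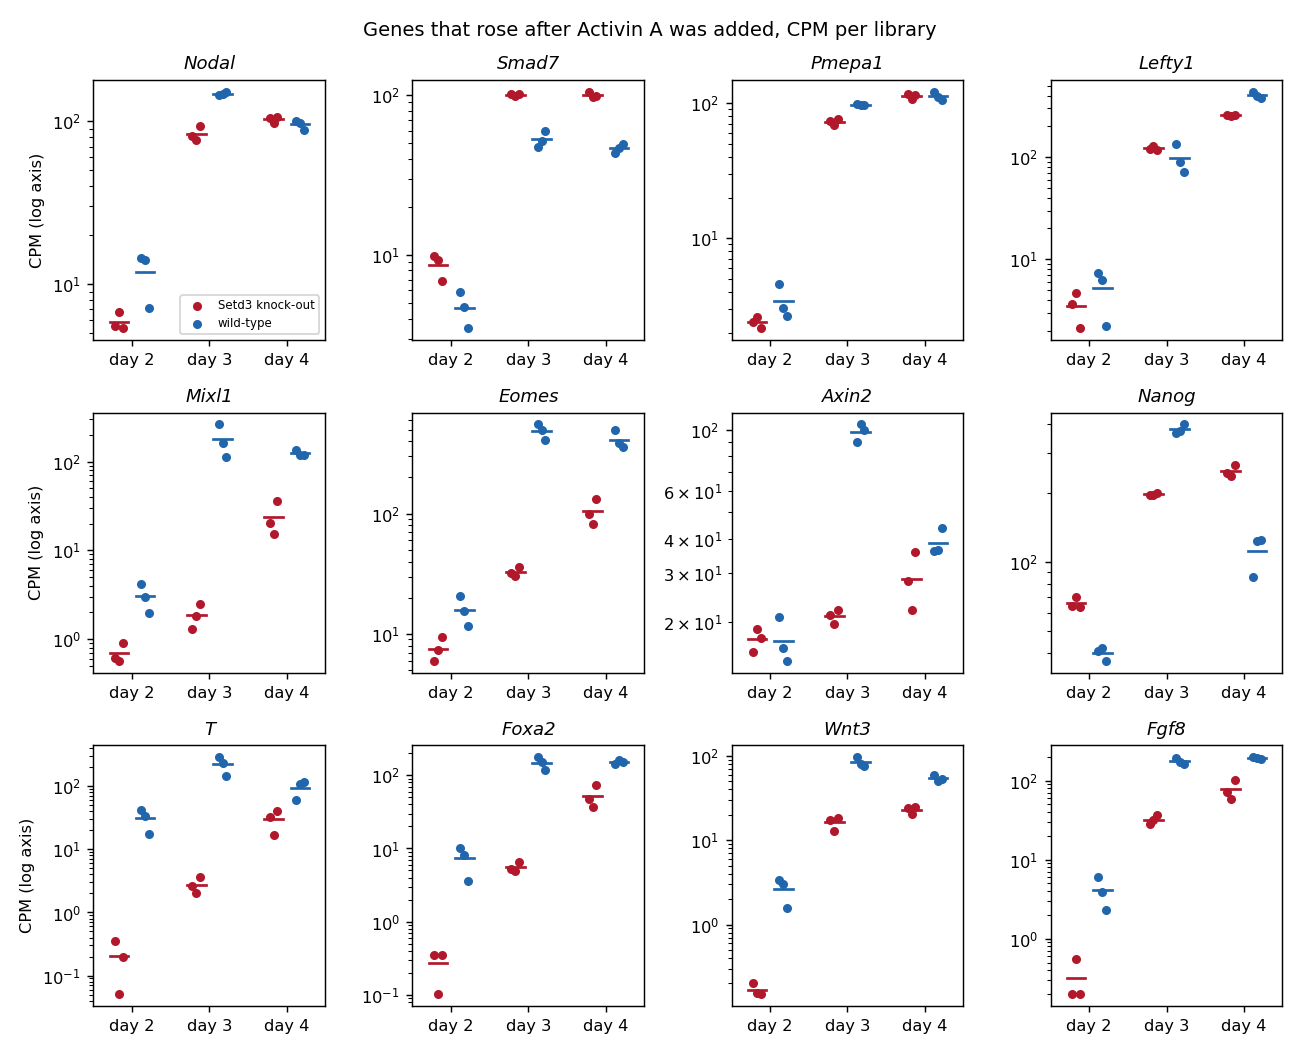
CPM per library at days 2, 3 and 4 on log axes with their own ranges, knock-out in red and wild-type in blue, points as libraries and bars as means. In the top row both genotypes climb and no interaction was called, though only Smad7 of these genes counts as alike. In the middle row knock-out cells lag at day 3, and Axin2 and Nanog start at or above the wild-type level. In the bottom row knock-out cells already start far below wild-type at day 2.

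Nanog, a pluripotency factor that Nodal signalling maintains in the epiblast, crossed over. It had 196, 196 and 201 CPM in knock-out and 367, 372 and 399 CPM in wild-type cells at day 3, and 64.3, 70.2 and 63.8 CPM in knock-out and 40.9, 41.8 and 36.7 CPM in wild-type cells at day 2. Knock-out libraries were all higher at day 2 and all lower at day 3, the steps were 1.58 in knock-out and 3.25 in wild-type cells, and the interaction was -1.67 ± 0.13 (SE, adjusted p = 7.09e-08).

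The size of the step and the level reached are different quantities, and several streak genes show this. T, the founding T-box gene, had 2.58, 2.07 and 3.6 CPM in knock-out and 288, 235 and 143 CPM in wild-type cells at day 3, and 0.352, 0.051 and 0.2 CPM in knock-out and 42, 33.3 and 17.3 CPM in wild-type cells at day 2. It was lower in knock-out cells by 7.22 on the log2 scale at day 2 and by 6.33 at day 3. Its steps of 3.74 in knock-out and 2.84 in wild-type cells gave an interaction of 0.89 with an interval of -2.59 to 4.38, since knock-out cells held 12 T counts over 3 libraries at day 2. On the linear scale T gained 2.55 CPM in knock-out and 191 CPM in wild-type cells, so the knock-out gain was 1.33% of that of wild-type. Foxa2, the pioneer factor of endoderm, had 5.25, 4.88 and 6.53 CPM in knock-out and 177, 152 and 118 CPM in wild-type cells at day 3, and 0.352, 0.102 and 0.349 CPM in knock-out and 10.2, 8.17 and 3.58 CPM in wild-type cells at day 2. Its step was 4.34 in knock-out and 4.34 in wild-type cells, its interaction interval -2.03 to 2.03, and its knock-out gain in CPM 3.73% of that of wild-type. Wnt3, a ligand needed for the streak, gained 19.7% and Fgf8, which drives cell migration out of it, 18.4% of the wild-type gain. Their steps were 6.55 in knock-out and 4.98 in wild-type cells for Wnt3 and 6.63 in knock-out and 5.42 in wild-type cells for Fgf8, and neither interaction was called (1.57 with an adjusted p of 0.0751, and 1.21 with 0.358). The Wnt3 interaction was called higher by DESeq2 (adjusted p 0.019), without knock-out day 3 replicate 2 (0.0442) and without wild-type day 2 replicate 3 (0.0146).

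Other rising genes had such a low start. Of the 347 undetermined rising genes, 91 were lower in knock-out cells on both days and 10 were higher on both days. Of the 15221 genes that did not count as responsive, 1447 were lower and 1503 higher on both days. Few knock-out counts at day 2 also widen the interval, so the undetermined class favours genes with a low start. Gsc, a homeobox gene of the anterior streak, gained 3.17% of the wild-type gain in CPM, with an interaction of -2.08 (interval -5.01 to 0.85). Lhx1, another such gene, had 27 counts over the 3 knock-out libraries at day 3 and 14 at day 2, against 11944 and 754 in wild-type cells. Its interaction of -3.18 was not called by edgeR (adjusted p 0.554) and was called by DESeq2 (0.0057). Of all 15 streak and mesendoderm genes, 1 was called higher (6.61% of all tested genes were) and 3 lower (4.33%) in the interaction. The list's median was -1.06, and 0.13 in the fit to 12 libraries. That fit tested 15495 genes and its median covers only list members that passed its own filter. The medians of both fits can therefore cover different members. In knock-out cells at day 3, 11 of them were lower and 1 higher, against 20.5% and 20.8% of all tested genes. The one called higher in the interaction was Fgf4, which fell in wild-type cells.

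Promoter sequence is shown for 3 of these genes, 1 of each pattern: Nanog crossed over, Axin2 started level and T started low. Each line gives the 250 bases before the RefSeq gene start on GRCm38.p6, forward strand: chr6:122707239-122707488 for Nanog, chr11:108920099-108920348 for Axin2 and chr17:8434173-8434422 for T. Capitals mark matches, on either strand, to CTTTGA (TCF and LEF factors), CAGAC (Smad3 and Smad4) and AATNCACA (Foxh1).
Nanog: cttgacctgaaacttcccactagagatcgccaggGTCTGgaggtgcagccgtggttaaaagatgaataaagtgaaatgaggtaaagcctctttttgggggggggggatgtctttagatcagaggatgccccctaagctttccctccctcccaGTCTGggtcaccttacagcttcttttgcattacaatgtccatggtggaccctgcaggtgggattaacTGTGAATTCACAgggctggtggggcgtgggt
Axin2: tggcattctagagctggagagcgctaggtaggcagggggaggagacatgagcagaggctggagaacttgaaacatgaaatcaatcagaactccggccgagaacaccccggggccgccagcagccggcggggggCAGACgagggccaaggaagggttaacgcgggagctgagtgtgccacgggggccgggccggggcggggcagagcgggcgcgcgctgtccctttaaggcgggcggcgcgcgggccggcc
T: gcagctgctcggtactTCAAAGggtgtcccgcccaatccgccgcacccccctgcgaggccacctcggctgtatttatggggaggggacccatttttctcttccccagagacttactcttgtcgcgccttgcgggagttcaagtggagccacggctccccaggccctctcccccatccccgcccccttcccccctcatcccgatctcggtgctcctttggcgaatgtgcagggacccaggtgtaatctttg
Nanog holds 2 matches to CAGAC and 2 overlapping matches to AATNCACA, Axin2 holds 1 to CAGAC, and T holds 1 to CTTTGA. Of 12043 tested genes with such a sequence, 13.0% held CTTTGA, 46.3% CAGAC and 2.48% AATNCACA. Of the 64 with a sequence among genes that rose less in knock-out cells, the shares were 12.5%, 45.3% and 6.25%, the last being 4 genes. CTTTGA was held by 8 of 27 promoters of genes that rose more (29.6%) and by 6 of 21 of genes that rose alike (28.6%), and these differences were not tested. These matches describe letters and not bound sites.

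Of 17 Wnt target genes 2 were called in the interaction, near the share of 10.9% called in either direction among all tested genes. Both were lower, as were 4.33% of all tested genes, and the list's median was -0.39. At an unadjusted p under 0.05 in edgeR's test 5 were lower and 0 higher, and DESeq2 called 3 lower and 0 higher. Axin2, the feedback scaffold that reports beta-catenin activity, had 21.1, 19.6 and 22 CPM in knock-out and 90.2, 105 and 99.7 CPM in wild-type cells at day 3, and 15.5, 18.9 and 17.5 CPM in knock-out and 20.9, 16 and 14.4 CPM in wild-type cells at day 2. The genotypes overlapped at day 2 and stood apart at day 3. The knock-out step was not called, and the interaction was -2.24 ± 0.25 (SE, adjusted p = 7.73e-06). Nkd1, another feedback inhibitor, had 6.42 ± 0.248 CPM in knock-out and 19.7 ± 2.04 CPM in wild-type cells at day 3, and 5.93 ± 1.17 CPM in knock-out and 7.08 ± 1.51 CPM in wild-type cells at day 2 (SD, n = 3 each), with an interaction of -1.36 ± 0.28 (SE, adjusted p = 0.0018) and again no called step in knock-out cells. Both calls held in all 12 fits with 1 library left out. At day 3, 10 of the 17 were lower in knock-out cells and 1 was higher, against 20.5% and 20.8% of all tested genes. Sp5 had 28 counts over the 3 knock-out libraries at day 3 and 2 at day 2, a ratio of 12.2 with a 95% counting interval of 3.09 to 106, against 4035 and 161 counts in wild-type cells at day 3 and day 2. Sp8, its relative, rose in both genotypes, with steps of 3.45 in knock-out and 2.66 in wild-type cells. Myc rose in both as well, with steps of 2.07 in knock-out and 2.54 in wild-type cells and an interaction of -0.47 that was not called (adjusted p 0.0666). The fit to 12 libraries called it, with 0.0236.

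Among 16 tested Wnt ligands 1 was called, Wnt5b, lower at -0.96 ± 0.22 (SE, adjusted p = 0.0053). Of all tested genes 10.9% were called, so 1 call in a list of this size is not above that share. The same holds for the intracellular components and the antagonists below, with 1 of 14 each. Wnt8a had 1.54 ± 0.136 CPM in knock-out and 87.7 ± 6.69 CPM in wild-type cells at day 3, and 0.386 ± 0.0795 CPM in knock-out and 8.25 ± 3.32 CPM in wild-type cells at day 2. It was lower in knock-out cells on both days, and its interaction of -1.43 was not called. Of 15 receptors and co-receptors 3 were called higher (6.61% of all tested genes were) and 1 lower (4.33%). Fzd7, a frizzled receptor, had 341, 343 and 321 CPM in knock-out and 177, 187 and 199 CPM in wild-type cells at day 3, and 359, 374 and 365 CPM in knock-out and 371, 343 and 364 CPM in wild-type cells at day 2. The genotypes overlapped at day 2, the wild-type step was called downward and the knock-out step was not, and the interaction was 0.81 ± 0.08 (SE, adjusted p = 2.06e-07). Ror2, a receptor for Wnt5 ligands, had 6.65, 5.94 and 8.29 CPM in knock-out and 45, 43.4 and 41.7 CPM in wild-type cells at day 3, and 8.74, 9.23 and 9.48 CPM in knock-out and 20.0, 18.1 and 15 CPM in wild-type cells at day 2, and an interaction of -1.68 ± 0.24 (SE, adjusted p = 5.21e-05). Fzd4 and Fzd3 were higher at 0.62, adjusted p = 0.0262 and 0.51, adjusted p = 0.0337. Of 14 intracellular components the repressor Tcf7l1 was called, at 0.80 ± 0.22 (SE, adjusted p = 0.0224). It rose in knock-out cells, and the wild-type step of -0.27 was not called. Of 14 antagonists Sfrp2 was called, at 0.68 ± 0.17 (SE, adjusted p = 0.0109). With 1 library left out, calls were lost for Fzd4 in 6 (up to 0.103, without knock-out day 3 replicate 2), Fzd3 in 7 (up to 0.114, without knock-out day 2 replicate 1) and Tcf7l1 in 5 (up to 0.0695, without wild-type day 2 replicate 1) of 12 fits, adjusted p in brackets.

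Of 16 tested definitive endoderm genes, 2 rose and 1 fell in knock-out cells, where 14.7% and 14.4% of all tested genes did, and 9 rose in wild-type cells, where 21.4% did. The interaction was called lower for 3 (4.33% of all tested genes were), with a list median of -1.09. Hhex, a homeobox gene of anterior endoderm, had 2.46, 2.39 and 1.93 CPM in knock-out and 30.8, 16.3 and 9.2 CPM in wild-type cells at day 3, and 4.32, 3.98 and 4.89 CPM in knock-out and 5.23, 6.38 and 5.7 CPM in wild-type cells at day 2. Knock-out libraries were below wild-type libraries on both days, the wild-type step was called upward and the knock-out step was not, and the interaction was -2.66 ± 0.59 (SE, adjusted p = 0.00593). Kit, a receptor of endoderm progenitors in mouse, fell in knock-out cells and rose in wild-type cells, with steps of -0.71 in knock-out and 0.86 in wild-type cells and an interaction of -1.57 ± 0.24 (SE, adjusted p = 0.000189). Trh, a hormone precursor gene, rose in both, with steps of 1.33 in knock-out and 2.06 in wild-type cells, and was higher in knock-out cells on both days. Its interaction was -0.72 ± 0.15 (SE, adjusted p = 0.00301). Sox17 had 0.169, 0.23 and 0.263 CPM in knock-out and 38.8, 12.4 and 5.14 CPM in wild-type cells at day 3, and 0.201, 0 and 0.15 CPM in knock-out and 2.59, 3.48 and 1.24 CPM in wild-type cells at day 2, and its interval of -7.85 to 3.71 left the interaction undetermined. Cer1, a secreted inhibitor of Nodal and Wnt, had 5 counts over the 3 knock-out libraries at day 3 and 0 at day 2, and a count of 0 allows up to 3, against 5828 and 522 counts in wild-type cells. In bulk RNA, fewer cells with a transcript and less transcript per cell cannot be told apart.

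Of 11 tested mesoderm genes 1 was called in the interaction, which is not above the 10.9% called in either direction among all tested genes. It was lower, as were 4.33% of all tested genes. The list's median was -1.46 (-0.77 in the fit to 12 libraries, over members that passed its own filter). Snai1, Zeb1, Cdh2 and Cdh11, given after Pdgfra, were counted among the epithelial and mesenchymal genes. Pdgfra, a receptor of early mesoderm and of primitive endoderm, had 0.635, 0.46 and 0.702 CPM in knock-out and 39.7, 16.4 and 11.7 CPM in wild-type cells at day 3, and 4.32, 3.31 and 2.54 CPM in knock-out and 3.79, 3.79 and 3.32 CPM in wild-type cells at day 2. It fell in knock-out cells and rose in wild-type cells, an interaction of -5.12 ± 1.00 (SE, adjusted p = 0.00117). Snai1, the repressor of Cdh1 that starts epithelial to mesenchymal transition in the streak, had 0.974, 0.736 and 1.1 CPM in knock-out and 16.2, 15.8 and 12.7 CPM in wild-type cells at day 3, and 3.52, 2.85 and 2.89 CPM in knock-out and 4.99, 3.79 and 3.21 CPM in wild-type cells at day 2. The genotypes overlapped at day 2 and stood apart at day 3, the steps had opposite signs, both called, and the interaction was -3.60 ± 0.39 (SE, adjusted p = 9.03e-07). Zeb1, a second such repressor, had an interaction of -1.96 ± 0.46 (SE, adjusted p = 0.00592). Cdh2 and Cdh11, mesenchymal cadherins, had -1.48, adjusted p = 0.0254 and -2.41, adjusted p = 0.0279.

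Several epithelial junction genes had interactions of the opposite sign. Cldn4, a tight junction claudin, had 43, 42.5 and 40.7 CPM in knock-out and 8.49, 11.6 and 12.3 CPM in wild-type cells at day 3, and 53.7, 57.7 and 53.6 CPM in knock-out and 39.1, 42.6 and 43.8 CPM in wild-type cells at day 2, an interaction of 1.57 ± 0.32 (SE, adjusted p = 0.00317). Cldn3 had 1.65, adjusted p = 0.000527 and Ocln, another tight junction protein, 1.20, adjusted p = 1.75e-06. Ocln rose in knock-out cells and fell in wild-type cells. Cldn6 and Cdh1, E-cadherin, were also higher at 0.74, adjusted p = 0.0241 and 0.28, adjusted p = 0.0387. In all, 5 of 18 epithelial and mesenchymal genes were called higher (6.61% of all tested genes were) and 4 lower (4.33%). All 5 higher ones were epithelial and all 4 lower ones mesenchymal. The other members were not called, and the list's median was -0.06. The calls of 4 of these 9 depended on single libraries among 12 fits: Cdh2 in 6 (up to 0.0628, without knock-out day 3 replicate 2), Cdh11 in 5 (up to 0.102, without knock-out day 2 replicate 1), Cldn6 in 7 (up to 0.068, without wild-type day 3 replicate 1) and Cdh1 in 8 (up to 0.134, without wild-type day 3 replicate 1), with adjusted p in brackets.

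**Figure D3:**
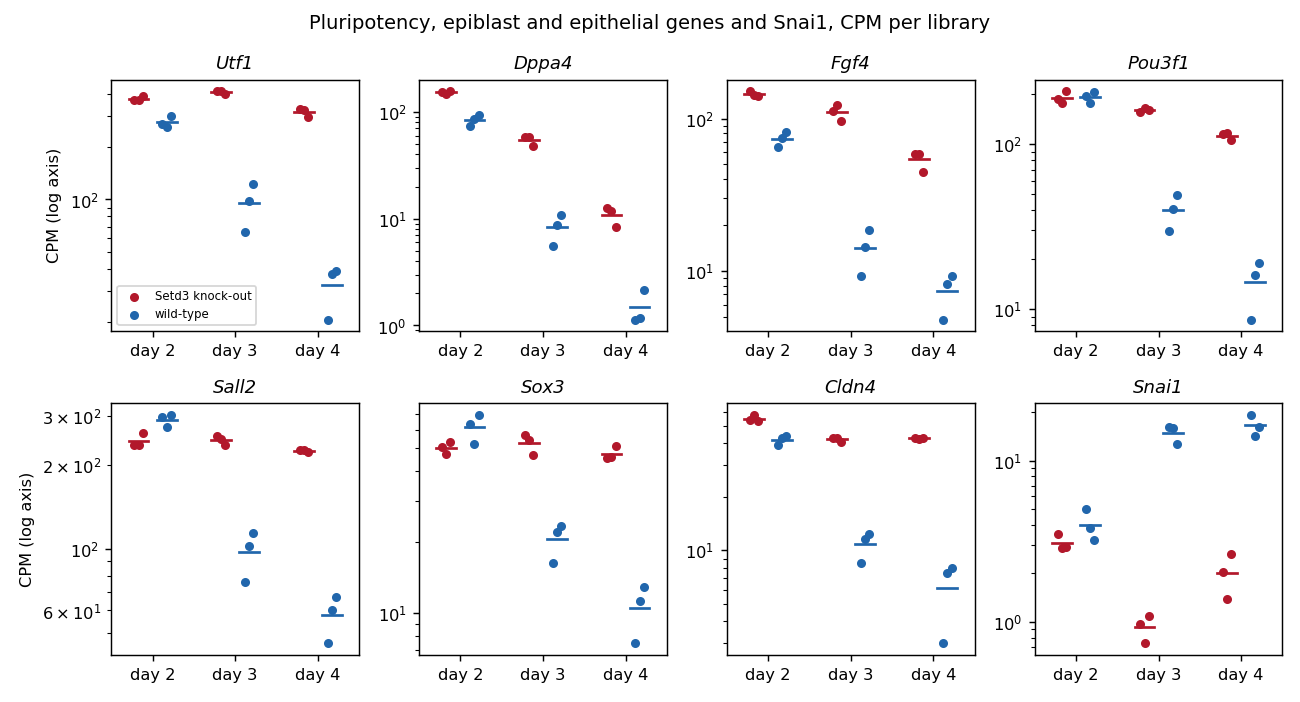
CPM per library at days 2, 3 and 4 on log axes with their own ranges, knock-out in red and wild-type in blue, points as libraries and bars as means. Wild-type cells drop between day 2 and day 3 in every panel except Snai1, while knock-out cells of the same panels stay close to their day 2 level or drop less. For Snai1 the wild-type level climbs and the knock-out level drops.

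Several pluripotency and epiblast genes fell in wild-type cells and fell less, or had no called step, in knock-out cells. Utf1, a chromatin factor of pluripotent cells, had 414, 414 and 401 CPM in knock-out and 65, 98.5 and 123 CPM in wild-type cells at day 3, and 369, 369.5 and 386 CPM in knock-out and 268, 259.8 and 299 CPM in wild-type cells at day 2. Its knock-out step was not called, and the interaction was 1.65 ± 0.26 (SE, adjusted p = 0.000427). Pou3f1, a POU factor of the epiblast, had 157, 166 and 160.5 CPM in knock-out and 29.7, 40.5 and 49 CPM in wild-type cells at day 3, and 187, 176 and 209 CPM in knock-out and 196, 176 and 208 CPM in wild-type cells at day 2. The genotypes overlapped at day 2, and at day 3 every knock-out library was above every wild-type library, an interaction of 2.04 ± 0.29 (SE, adjusted p = 0.000149). Sall2 had 1.59, adjusted p = 3.45e-05 and Sox3 1.64, adjusted p = 7.18e-05, likewise with no called step in knock-out cells. Dnmt3b, a DNA methyltransferase of the epiblast, had 0.68, adjusted p = 0.00832, with no called step in knock-out cells. Foxd3, another epiblast gene, rose in knock-out cells and had no called step in wild-type cells, at 0.88, adjusted p = 0.0328. Fgf5, also an epiblast gene, rose in both genotypes and rose less in knock-out cells, at -0.37, adjusted p = 0.0217. Of 11 formative and primed epiblast genes, 5 were called higher (6.61% of all tested genes were) and 1 lower (4.33%), with a median of 0.38. Dppa4 and Dppa2, chromatin factors of pluripotent cells, fell in both genotypes. Dppa4 had 54.6 ± 6.06 CPM in knock-out and 8.32 ± 2.63 CPM in wild-type cells at day 3, and 152 ± 4.1 CPM in knock-out and 83.6 ± 9.71 CPM in wild-type cells at day 2 (SD, n = 3 each), an interaction of 1.85 ± 0.24 (SE, adjusted p = 3.86e-05), and Dppa2 had one of 1.25 ± 0.21 (SE, adjusted p = 0.000303). Of 9 general pluripotency genes 3 were called higher (6.61% of all tested genes were), Utf1, Dppa4 and Dppa2, and 1 lower (4.33%), Tdgf1. Without single libraries, calls were lost for Foxd3 in 10 (up to 0.101, without wild-type day 3 replicate 1) and Fgf5 in 6 (up to 0.075, without wild-type day 3 replicate 1) of 12 fits, adjusted p in brackets.

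Naive pluripotency genes had called interactions of both signs around a median near 0. Of 15, 12 fell in knock-out (14.4% of all tested genes did) and 9 in wild-type cells (21.1%), and the median interaction was -0.09. Called higher was 1, Fgf4, at 1.99, adjusted p = 7.06e-05 (6.61% of all tested genes were). Called lower were 3, Nanog, Klf5 and Prdm14 (4.33% of all tested genes were). Fgf4, the FGF ligand of pluripotent cells, had 112, 122 and 96.5 CPM in knock-out and 9.2, 14.4 and 18.5 CPM in wild-type cells at day 3, and 151, 144 and 141 CPM in knock-out and 65.5, 74.1 and 81.9 CPM in wild-type cells at day 2. Knock-out libraries were above wild-type on both days, by 2.97 at day 3 and 0.98 at day 2 on the log2 scale. Klf5 and Prdm14, both factors of naive cells, fell in knock-out cells, which stood above wild-type cells at day 2. Their interactions were -0.86, adjusted p = 0.0028 and -2.97, adjusted p = 0.034. Prdm14 had 9 counts over the 3 knock-out and 17 over the 3 wild-type libraries at day 3, against 99 and 25 at day 2. It lost its call in 7 of 12 fits with 1 library left out. The adjusted p was up to 0.146, without wild-type day 3 replicate 1.

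Among genes that fell and reached 10 CPM in at least 1 group mean, the 5 with the most positive interaction had no called step in knock-out cells. Ttbk1, a tau kinase, had 19.8, 19.2 and 19 CPM in knock-out and 1.89, 2.61 and 3.35 CPM in wild-type cells at day 3, and 23.2, 24.4 and 26.9 CPM in knock-out and 36.3, 27.6 and 28.2 CPM in wild-type cells at day 2. The genotypes did not overlap at day 3, and the interaction was 3.19 ± 0.26 (SE, adjusted p = 2.21e-08). Sez6, a neuronal membrane protein, had 17 ± 1.53 CPM in knock-out and 3.71 ± 1.01 CPM in wild-type cells at day 3, and 21 ± 2.4 CPM in knock-out and 32.4 ± 2.8 CPM in wild-type cells at day 2 (SD, n = 3 each), an interaction of 2.81 ± 0.24 (SE, adjusted p = 4.78e-08). Spon1, an extracellular matrix protein, had 2.68, adjusted p = 8.71e-07, Map6, a microtubule-binding protein, 2.26, adjusted p = 6.54e-06, and Minar1 2.32, adjusted p = 3.66e-07. Over the 210 genes that fell less, the median step was -0.72 in knock-out and -2.34 in wild-type cells. The knock-out step was called downward for 128 (14.4% of all tested genes), upward for 1 (14.7%), and was not called for 81. At day 3, 192 of them were higher in knock-out cells (20.8% of all tested genes were). No difference at day 2 was called for 115 of these. The 210 genes too were chosen by the interaction, so such counts describe the class and are no separate evidence. Lrp2, an endocytic receptor, showed the same pattern without reaching the 2-fold average, with 283 ± 14 CPM in knock-out and 67.3 ± 21.9 CPM in wild-type cells at day 3, and 223 ± 11.4 CPM in knock-out and 212 ± 38.3 CPM in wild-type cells at day 2 and an interaction of 2.00 ± 0.32 (SE, adjusted p = 0.000513). Pax6, a neural gene, fell in both genotypes and fell less in knock-out cells, at 2.75, adjusted p = 0.00206. It had 57 counts over the 3 knock-out and 12 over the 3 wild-type libraries at day 3, against 140 and 222 at day 2. It and Sox3 were called higher and Cdh2 lower among 9 tested neuroectoderm genes, whose median was 1.01. Lrp2 was called higher and Pdgfra lower among 17 tested genes of extraembryonic endoderm, whose median was 0.42. Of all tested genes 6.61% were called higher and 4.33% lower.

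Among BMP genes 1 of 11 was called higher (6.61% of all tested genes were) and 2 lower (4.33%). Bmp7, a BMP ligand, had 6.27, 7.32 and 5.44 CPM in knock-out and 56.5, 49.3 and 33 CPM in wild-type cells at day 3, and 3.97, 5.56 and 4.59 CPM in knock-out and 8.83, 9.38 and 7.2 CPM in wild-type cells at day 2. The knock-out step was not called, and the interaction was -2.02 ± 0.41 (SE, adjusted p = 0.00319). Id2, a BMP target, rose in both genotypes and rose more in knock-out cells, at 0.79, adjusted p = 0.00441. Msx1, another target, was lower at -1.55, adjusted p = 0.0409. Of 18 FGF and ERK genes 3 were called higher (6.61% of all tested genes were) and 2 lower (4.33%). Besides Fgf4, Fgf17 and Fgf5 these were the inhibitor Spry1, with 0.70, adjusted p = 0.000425, and the receptor Fgfr2, with 0.50, adjusted p = 0.0167. Calls were lost with 1 library left out for Msx1 in 10 (up to 0.118, without knock-out day 2 replicate 1) and Fgfr2 in 4 (up to 0.0664, without knock-out day 3 replicate 2) of 12 fits, adjusted p in brackets.

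A smaller set of genes answered more strongly in knock-out cells. Of the 35 that rose more, all had a knock-out step called upward (14.7% of all tested genes did). The median step was 2.15 in knock-out and 0.87 in wild-type cells. At day 2, 21 of them were lower in knock-out cells (15.7% of all tested genes were). At day 3, 19 were higher (20.8%) and 2 lower (20.5%). The 35 were also chosen by the interaction, so these counts describe the class and are no separate evidence. Calcr, the calcitonin receptor gene, had 62.3, 65.2 and 65 CPM in knock-out and 29.4, 35.4 and 44.9 CPM in wild-type cells at day 3, and 10.7, 9.17 and 10.8 CPM in knock-out and 15, 19.9 and 14.6 CPM in wild-type cells at day 2. Knock-out libraries were below all wild-type libraries at day 2 and above all of them at day 3, an interaction of 1.49 ± 0.23 (SE, adjusted p = 0.000118). Cbln4, a secreted synaptic protein, had 14.5 ± 1.11 CPM in knock-out and 3.22 ± 0.899 CPM in wild-type cells at day 3, and 2.07 ± 0.486 CPM in knock-out and 1.67 ± 0.224 CPM in wild-type cells at day 2 (SD, n = 3 each), an interaction of 1.88 ± 0.30 (SE, adjusted p = 0.00015). Thsd7a, a membrane protein, was lower at day 2 in knock-out cells by 1.98 on the log2 scale, and its interaction was 1.51 ± 0.34 (SE, adjusted p = 0.00449). Sema3c, a secreted guidance factor, had 1.53, adjusted p = 0.0488, and that call was lost in 11 of 12 fits with 1 library left out, with an adjusted p of up to 0.13 without wild-type day 3 replicate 1.

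The 24 genes that fell more had a median step of -2.43 in knock-out and -0.65 in wild-type cells. At day 2, 15 of them were higher in knock-out cells (16.2% of all tested genes were), a count that the choice by the interaction favours. Dlc1, a GTPase-activating protein, had 21.8, 28.1 and 18.7 CPM in knock-out and 49.1, 34.5 and 21.4 CPM in wild-type cells at day 3, and 95.7, 102 and 97.6 CPM in knock-out and 38, 42.8 and 51.6 CPM in wild-type cells at day 2. The genotypes overlapped at day 3 and stood apart at day 2, an interaction of -1.77 ± 0.34 (SE, adjusted p = 0.00236). Jam2, a junction protein, was higher at day 2 in knock-out cells by 1.99 on the log2 scale, with an interaction of -1.77 ± 0.34 (SE, adjusted p = 0.00153). Ifitm1, an interferon-inducible membrane protein, had -1.38, adjusted p = 0.00282. Gpx4, a lipid peroxidase, had -1.21, adjusted p = 7.08e-05, and its reads may be shared with the copy Gpx4-ps2.

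Genes that answered alike are those whose interaction interval lay within 1.5-fold on either side, whether or not it held 0. Zfp827, a zinc finger protein, had steps of 2.08 in knock-out and 2.03 in wild-type cells (interval of the interaction -0.42 to 0.52), Map3k15, a kinase, of 1.87 in knock-out and 1.77 in wild-type cells (-0.30 to 0.51), and Kcnq3, a potassium channel, of 1.71 in knock-out and 1.80 in wild-type cells (-0.46 to 0.27). Cxxc4, an inhibitor of Wnt signalling, kept the same ratio between genotypes: it had 6.22 ± 0.957 CPM in knock-out and 11.9 ± 0.803 CPM in wild-type cells at day 3, and 1.79 ± 0.412 CPM in knock-out and 3.34 ± 0.196 CPM in wild-type cells at day 2, and the interval was -0.48 to 0.41. Among genes that fell alike, Plcd1, a phospholipase, had steps of -1.95 in knock-out and -2.25 in wild-type cells (interval 0.02 to 0.58, which lies above 0), Acss1, an acetyl-CoA synthetase, of -1.85 in knock-out and -2.01 in wild-type cells (-0.28 to 0.58), and Dlgap3, a synaptic scaffold, of -1.91 in knock-out and -1.75 in wild-type cells (-0.55 to 0.24). The level itself need not be alike. Of the 27 genes that rose alike, 8 were higher (20.8% of all tested genes were) and 5 lower (20.5%) in knock-out cells at day 3. Of the 21 that fell alike, 16 were higher and 1 lower, against the same shares.

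**Figure D4:**
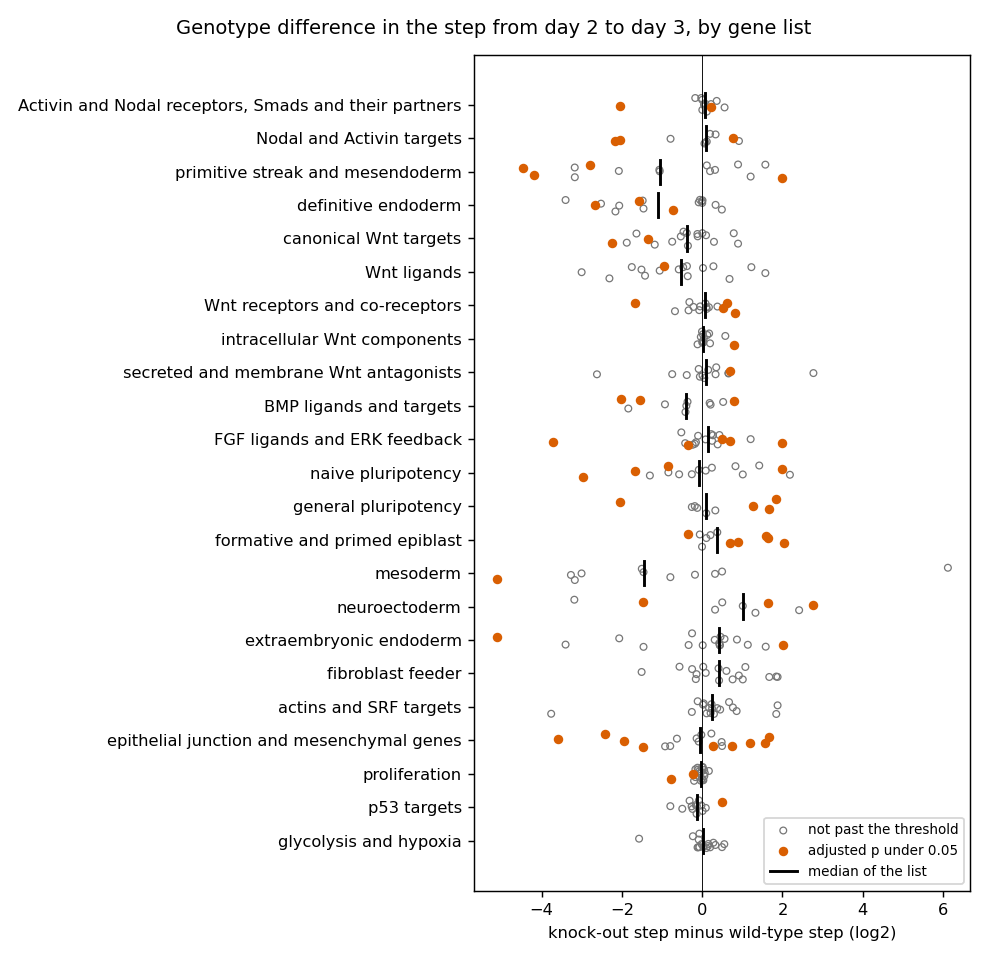
Interaction (knock-out step minus wild-type step, log2) of each tested member of 23 gene lists, 1 list per line, with orange points called at an adjusted p under 0.05 and black bars at the list medians. Medians run from -1.46 for mesoderm to 1.01 for neuroectoderm genes, and 4 of the 23 shift in the fit to 12 libraries. That fit takes each median over members that passed its own filter. The medians of receptors and Smads, glycolysis and proliferation lie close to 0.

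Lists unrelated to germ layers are set here against the 10.9% of all tested genes that were called in the interaction. None of 18 actin and SRF target genes and none of 17 glycolysis and hypoxia genes was called in the interaction by edgeR, with medians of 0.24 and 0.03. At an unadjusted p under 0.05 there were 6 higher actin and SRF genes and 1 higher glycolysis gene, and DESeq2 called 2 and 0 of these lists. Of the 18 actin and SRF genes, 12 rose in knock-out cells (14.7% of all tested genes did) and 7 in wild-type cells (21.4%). Of 21 proliferation genes, Ccne2 and Birc5 were called, lower at -0.78, adjusted p = 0.000226 and -0.22, adjusted p = 0.0481, with a list median of -0.04. Of 13 p53 targets Bbc3 was called, higher at 0.49, adjusted p = 0.0153. Birc5 lost its call in 10 of 12 fits with 1 library left out, with an adjusted p of up to 0.165 without wild-type day 3 replicate 1. Bbc3 lost it without knock-out day 3 replicate 3 (0.064), wild-type day 2 replicate 1 (0.0643) or wild-type day 3 replicate 1 (0.0515).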

How the data were processed

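The authors deposited whole-number read counts per gene, not normalised, from polyadenylated RNA. Trimmomatic, HISAT2 and the build GRCm38.p6 are named in the submitters' processing notes. The sources used here do not give the counting tool, its annotation or the use of strand, so overlapping and copied genes are uncertain; Sox2 was listed at 0 counts in every library and was not analysed. Symbols and coordinates (GRCm38) came from GENCODE M21, which held 55141 of 55401 identifiers; 1616 deposited names differed from it and 1830 blanks were filled.

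CPM used TMM-scaled totals. edgeR 4.0.16 (R 4.3.3) fitted 1 quasi-likelihood model to all 24 libraries, days 0 and 4 included, for 17144 genes that passed filterByExpr, with 16 residual degrees of freedom and a common biological coefficient of variation of 0.0906. P-values were adjusted over all tested genes (Benjamini-Hochberg). Standard errors and 95% intervals came from the fitted weights, because the planned ratio to the F statistic is unstable near 0. Counting intervals cover counting error only. In simulated counts for the interaction (16956 genes), the test called 43.3% of 67 genes set to 1.5-fold, 74.6% of 67 at 2-fold, 98.5% of 66 at 4-fold and 64 of 16756 left unchanged. The changed genes had a mean of at least 1 CPM and were changed in knock-out cells at day 3 only. Counts were drawn from the fitted dispersion without the quasi-likelihood spread of each gene, so variable genes can be harder to call than simulated ones. The unchanged knock-out level at day 3 was capped at the highest of 3 fitted group levels, so some unchanged genes can hold a difference. Recovery below that level, where many undetermined genes lie, was not measured.

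The comparison and gene lists were chosen with earlier results of these data known. Named by rule were Setd3; among genes with a proper symbol and at least 10 CPM in the highest of 4 group means, the 8 and 5 of largest interaction that rose and fell less, the 5 and 4 that rose and fell more, and the 6 and 3 of largest average step that rose and fell alike; and list members of lowest adjusted p. Other list members that were not called, such as Nodal, T and Foxa2, were named after their values were seen. Some genes that these rules name are not reported here. Alternatives were DESeq2 1.42.0 and its size factors, no filter, 12 libraries alone, a replicate block, each library left out, other class limits and, added after seeing the data, the F-based interval and leaving out 2 regions.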

Additional observations from a re-analysis of the deposited data

Results flagged for a closer look

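The genotypes differed in the step from day 2 to day 3 for 1877 genes by the test of the difference itself, and the named genes among them are given here with the log2 interaction, knock-out step minus wild-type step. Smaller rises in knock-out cells were found for Mixl1 (-4.46), Evx1 (-4.20), Lzts1 (-3.83), Adamts9 (-3.74), Fgf17 (-3.73), Samd5 (-3.68), Grrp1 (-3.67), Pcdh7 (-3.35), Eomes (-2.80), Cdh11 (-2.41), Axin2 (-2.24), Fst (-2.18), Tdgf1 (-2.06), Bmp7 (-2.02), Nanog (-1.67), Msx1 (-1.55), Wnt5b (-0.96), Trh (-0.72) and Fgf5 (-0.37). Smaller falls were found for Ttbk1 (3.19), Sez6 (2.81), Pax6 (2.75), Spon1 (2.68), Minar1 (2.32), Map6 (2.26), Pou3f1 (2.04), Fgf4 (1.99), Dppa4 (1.85), Cldn4 (1.57), Dppa2 (1.25) and Gdf3 (0.76). Larger rises were found for Cbln4 (1.88), Sema3c (1.53), Thsd7a (1.51) and Calcr (1.49). Larger falls were found for Prdm14 (-2.97), Dlc1 (-1.77), Jam2 (-1.77), Ifitm1 (-1.38) and Gpx4 (-1.21). Among genes whose average step was under 2-fold, the knock-out step was the higher one for Lrp2 (2.00), Cldn3 (1.65), Utf1 (1.65), Sox3 (1.64), Sall2 (1.59), Ocln (1.20), Foxd3 (0.88), Fzd7 (0.81), Tcf7l1 (0.80), Id2 (0.79), Cldn6 (0.74), Spry1 (0.70), Sfrp2 (0.68), Dnmt3b (0.68), Fzd4 (0.62), Fzd3 (0.51), Fgfr2 (0.50), Bbc3 (0.49), Cdh1 (0.28) and Trim33 (0.22). It was the lower one for Pdgfra (-5.12), Snai1 (-3.60), Hhex (-2.66), Zeb1 (-1.96), Ror2 (-1.68), Kit (-1.57), Cdh2 (-1.48), Nkd1 (-1.36), Klf5 (-0.86), Ccne2 (-0.78) and Birc5 (-0.22). Groups of 3 libraries are too small for a test of single outlying samples.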

How the results depend on the processing

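No called interaction of a named gene changed sign under any alternative run. The interaction calls numbered 1870 with DESeq2's size factors, 1656 without a filter, 2614 in the fit to 12 libraries (1727 higher, against 1134), 2145 by DESeq2's own test and 1303 to 1982 with 1 library left out, and 1251 to 1676 of these last were among the 1877. Choosing responsive genes by the wild-type step, which shares its libraries with the interaction, gave 195 genes that rose less, 462 that fell less, 13 that rose more and 8 that fell more. A 4-fold average step gave 27, 52, 3 and 6 of these, 2 and 1 that rose and fell alike and 121 and 413 undetermined. A limit of 2-fold for alike gave 82 and 124. With 1 library left out, genes that rose less numbered 69 to 101, those that fell less 130 to 225, those that rose more 22 to 29, those that fell more 12 to 23, those alike 23 to 29 (rose) and 12 to 19 (fell). Without chromosome 8 and chromosome 12 from 90 Mb, 16116 genes remained and no count moved by over 1.5 times. Same-numbered samples correlated by -0.26 to 0.27 in their deviations and the number is not taken as a pairing; with the replicate block 1912 genes were called, 1802 of them shared, Setd3 gained a call (adjusted p 0.0444) and Sema3c lost it (0.0681). Of 71 named genes called, 50 kept the call in all 12 fits with 1 library left out. Without a filter, calls ended for Trim33 (0.07), Cldn6 (0.0531), Prdm14 (0.0534), Foxd3 (0.071), Evx1 (0.0722), Sema3c (0.0996), Birc5 (0.106), Gdf3 (0.109) and Msx1 (0.115). In the fit to 12 libraries they ended for Tcf7l1 (0.0513), Evx1 (0.0529), Mixl1 (0.0568), Birc5 (0.0589), Cdh2 (0.0743) and Msx1 (0.0793), adjusted p in brackets. DESeq2 and its size factors ended that of Birc5 (0.058 and 0.0745). The causes were not tested. Of 23 list medians, 4 moved in the fit to 12 libraries: primitive streak to 0.13 (against -1.06), mesoderm to -0.77 (-1.46), neuroectoderm to 1.34 (1.01) and actin and SRF genes to 0.27 (0.24). That fit tested 15495 genes, and its medians cover only list members that passed its own filter. They can therefore cover other members than the main medians. The 1517 undetermined genes had low levels (medians of 1.29 CPM for those that rose and 0.67 CPM for those that fell) and large standard errors (medians of 0.61 and 0.72), against 0.17 and 0.19 for those alike.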
